A study of Mus musculus with 14 samples.

Results

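Ccl2, Ccl3, Ccl4, Ccl5, Ccl6, Ccl7, Ccl8, Ccl9 and Ccl12 encode the CC chemokines by which macrophages draw monocytes and other leukocytes into tissue, and these 9 of 20342 measured genes are described here. They were found by matching the RefSeq accession of each array probe to the gene symbol, and each had 1 probe. Total RNA was measured on 14 single-colour arrays, 1 per sample, of peritoneal macrophages from C57BL/6 mice. All samples were sorted as positive for both CD11b and F4/80, so the same gate was used in every group and did not by itself separate resident from recruited cells. Mice in the Thio+IL-4c group (4 arrays) were injected in the peritoneum with 2 ml of 4% thioglycollate, a broth that draws monocytes into the cavity, together with IL-4c. IL-4c is a complex of 5 µg of the cytokine IL-4 with 25 µg of the antibody 11B11, which prolongs the action of IL-4 in the animal. The Thio group (3 arrays) received the thioglycollate alone, the IL-4c group (4 arrays) the complex alone and the PBS group (3 arrays) the vehicle. Cells of the groups given thioglycollate are called elicited here and those of the other groups resident. No group received the antibody without IL-4, and ages are not given in the labels. Nothing in the labels tells whether the replicates of a group were different mice, and the p-values therefore cover the spread among these arrays alone, which may be technical.

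CC chemokines are small secreted proteins that bind receptors on the surface of leukocytes and guide their movement along a gradient. Ccl2, Ccl7, Ccl8 and Ccl12 belong to the monocyte chemoattractant proteins. Ccl2, Ccl7 and Ccl12 act on the receptor Ccr2 of inflammatory monocytes, whereas mouse Ccl8 is known to act on Ccr8. Ccl3 and Ccl5 act on Ccr1. Ccl3, Ccl4 and Ccl5 are made by macrophages, T cells and NK cells. Ccl6 and Ccl9 are rodent chemokines that act on Ccr1 and are made by myeloid cells at rest.

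The sequence before the transcription start is shown for Ccl3, Ccl8 and Ccl12, because these genes took 3 different courses over the 4 groups. The RefSeq promoter table of build GRCm38.p6 held 5 of the 9 genes, the others being Ccl6 and Ccl9, and 250 bases before the start were read from it on the gene's own strand, from 5′ to 3′. Capitals mark TATAAA, the core of a TATA box, and GAGGAA, a core bound by PU.1, a master regulator of macrophages, and TTCCTC is GAGGAA read on the other strand. The regions are chr11:83649379-83649628 on the minus strand for Ccl3, chr11:82114935-82115184 on the plus strand for Ccl8 and chr11:82101595-82101844 on the plus strand for Ccl12.
Ccl3: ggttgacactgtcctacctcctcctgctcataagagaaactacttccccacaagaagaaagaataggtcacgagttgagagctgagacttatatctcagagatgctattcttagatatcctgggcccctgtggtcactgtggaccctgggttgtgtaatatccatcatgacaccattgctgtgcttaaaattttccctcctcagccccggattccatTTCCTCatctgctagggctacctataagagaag
Ccl8: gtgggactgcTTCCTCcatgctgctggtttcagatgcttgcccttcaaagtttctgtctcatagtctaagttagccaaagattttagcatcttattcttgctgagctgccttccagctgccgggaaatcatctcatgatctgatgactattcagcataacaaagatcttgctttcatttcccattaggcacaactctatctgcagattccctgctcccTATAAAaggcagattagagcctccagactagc
Ccl12: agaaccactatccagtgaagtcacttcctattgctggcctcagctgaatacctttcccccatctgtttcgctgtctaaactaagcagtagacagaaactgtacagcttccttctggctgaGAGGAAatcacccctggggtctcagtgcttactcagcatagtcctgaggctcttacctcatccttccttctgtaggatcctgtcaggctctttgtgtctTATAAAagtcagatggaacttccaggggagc
TATAAA or its complement TTTATA was found in 3 of the 5 windows (Ccl8, Ccl9 and Ccl12), against 12.4% of all 32851 promoters in the table. It ended at position -27 from the start in Ccl8 and at -26 in Ccl12. GAGGAA on either strand was found in 3 of 5 (Ccl3, Ccl8 and Ccl12), against 23.3% of all promoters. The letters TTC and GAA with 4 bases between them, of the type bound by the IL-4 effector STAT6, were in 0 of the 5 windows and in 5.85% of all promoters. On either strand, GGG followed after 2 bases by TTTCC, of the type bound by NF-kB, was found in Ccl9 alone, against 1.41% of all promoters, and TGANTCA, of the type bound by AP-1, likewise in Ccl9 alone, against 6.75%. In these windows the sole overlap was of TATAAA with TTTATA in Ccl9, and a match of letters is no measurement of binding. Ccl12 and Ccl8 are neighbours on chromosome 11, and an alignment of their windows matched 147 bases, or 58.8% of the window, against 49.6% to 55.2% for the other 9 pairs of the 5 windows.

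Each level is a log2 signal from which the array's own 75th percentile was subtracted, so 0 is the level of that percentile and a difference of 1 is a doubling. Probes differ in brightness, and levels of different genes are not compared. Differences were tested with limma over all genes, and a gene was called where the Benjamini-Hochberg adjusted p was under 0.05. The percentile lay at 1948 to 2403 on Thio+IL-4c arrays, 2141 to 3416 on Thio arrays, 2849 to 3605 on IL-4c arrays and 1200 to 1712 on PBS arrays, and 79.2% to 95.7% of probes were well above background. All 9 members were well above background on all 14 arrays except Ccl3, which was so on 2 of the 4 IL-4c arrays. The PBS, IL-4c and Thio 1 arrays lay on 1 slide, and Thio 2, Thio 3 and the Thio+IL-4c arrays on another. Thio 1 stood apart over all genes: it lay at a median of 0.74 log2 units from the mean of Thio 2 and Thio 3, whereas the median was 0.17 for the 9 members. The macrophage markers Adgre1, Itgam, Csf1r and Mertk were well above background on every array, and Fcgr1 on all but 1 IL-4c array. The number of arrays limits the precision of every value.

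**Figure D1:**
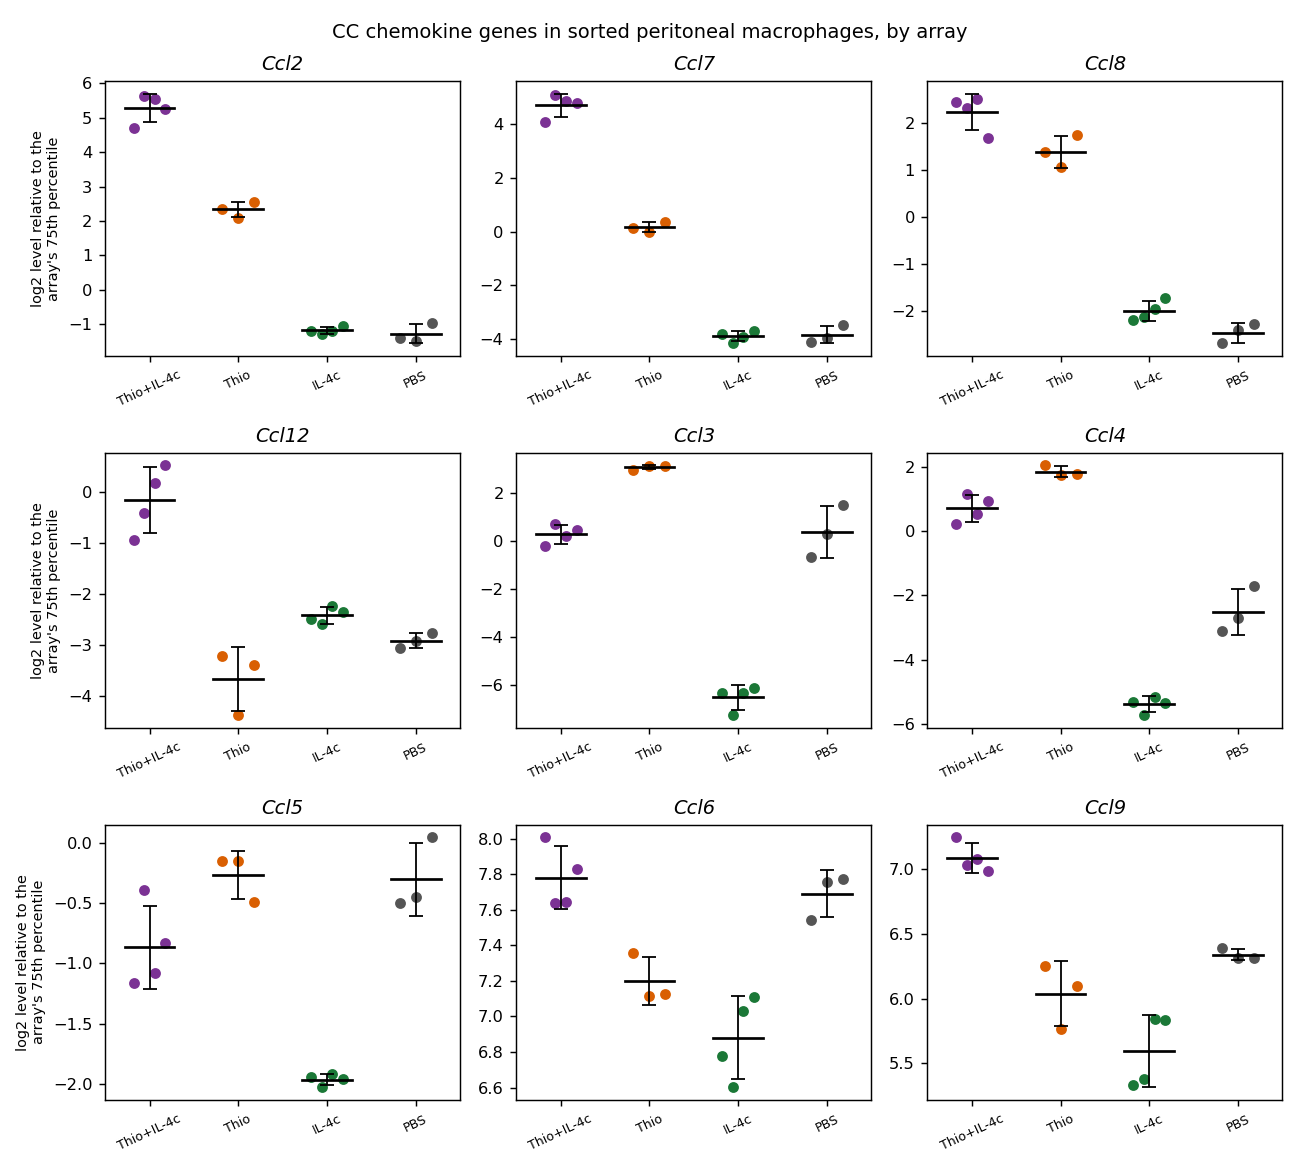
Log2 level of each of the 9 chemokine genes, with the array's 75th percentile at 0 (y axis, a separate scale in each panel), with 1 point per array in the Thio+IL-4c, Thio, IL-4c and PBS groups (x axis); the horizontal line is the group mean and the bar 1 SD. Ccl2 and Ccl7 were highest in Thio+IL-4c, at means of 5.28 and 4.72, and Ccl3 and Ccl4 in Thio, at 3.08 and 1.85.

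The monocyte chemoattractant genes are taken first. Ccl2, the main ligand for Ccr2, had levels of 4.70, 5.62, 5.55 and 5.26 on the Thio+IL-4c arrays and 2.35, 2.09 and 2.55 on the Thio arrays. It had -1.20, -1.28, -1.19 and -1.05 on the IL-4c arrays and -1.40, -1.49 and -0.97 on the PBS arrays. The elicited arrays lay above the resident ones, the 2 elicited groups did not overlap, and IL-4c and PBS overlapped. Ccl2 rose 7.73-fold in Thio+IL-4c against Thio (log2 difference 2.95, SE 0.22, limma adjusted p = 8.1e-07) and 12.3-fold in Thio against PBS (3.62, SE 0.23, adjusted p = 2.4e-07). In Thio+IL-4c it was 88.2-fold above IL-4c. In resident cells the difference of IL-4c from PBS was 0.10, with a 95% confidence interval of -0.37 to 0.58 (adjusted p = 0.80). The Ccl2 probe was spotted 10 times per array, and the SD of log2 signal over those spots was 0.10 to 0.19 on Thio+IL-4c arrays, 0.13 to 0.20 on Thio arrays, 0.38 to 0.59 on IL-4c arrays and 0.29 to 0.55 on PBS arrays. Repeat spots scattered more where the gene was dim.

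Ccl7, which also attracts monocytes through Ccr2, was likewise highest in Thio+IL-4c and next in Thio, with a wider span. Its levels were 4.09, 5.11, 4.87 and 4.80 in Thio+IL-4c, 0.13, -0.02 and 0.35 in Thio, -3.84, -4.15, -3.95 and -3.70 in IL-4c, and -4.11, -3.97 and -3.49 in PBS. The lowest Thio+IL-4c array stood well over the highest Thio array, and IL-4c and PBS overlapped. Ccl7 rose 23.6-fold in Thio+IL-4c against Thio (4.56, SE 0.23, adjusted p = 5.7e-08) and 16.1-fold in Thio against PBS (4.01, SE 0.25, adjusted p = 2.0e-07). Its difference in Thio+IL-4c against IL-4c was 8.63, or 396-fold, the difference of rank 8 in size among the 20342 genes. IL-4c against PBS gave -0.06 (95% confidence interval -0.56 to 0.45, adjusted p = 0.91). In signal units before scaling, the geometric mean of Ccl7 was 54793 in Thio+IL-4c, 3222 in Thio, 210 in IL-4c and 105 in PBS.

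Ccl12, known in the mouse as MCP-5 and a ligand for Ccr2, did not follow Ccl2 and Ccl7 with thioglycollate alone. It had levels of -0.93, -0.41, 0.18 and 0.53 in Thio+IL-4c and -3.22, -4.38 and -3.40 in Thio. It had -2.50, -2.59, -2.23 and -2.36 in IL-4c and -3.06, -2.92 and -2.76 in PBS. Thio was the lowest group and Thio+IL-4c the highest, with no overlap between any of the groups compared. Ccl12 rose 11.4-fold in Thio+IL-4c against Thio (3.51, SE 0.34, adjusted p = 6.8e-06) and 4.78-fold in Thio+IL-4c against IL-4c. Thio minus PBS was -0.75 (SE 0.36, adjusted p = 0.11), and -0.98 without Thio 1 (adjusted p = 0.044). IL-4c minus PBS was 0.50 (SE 0.34, adjusted p = 0.33).

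Ccl8 rose with thioglycollate and, by less, when IL-4c was added to it. Its levels were 2.46, 2.33, 2.52 and 1.68 in Thio+IL-4c, 1.39, 1.06 and 1.74 in Thio, -2.19, -2.12, -1.96 and -1.73 in IL-4c, and -2.70, -2.41 and -2.28 in PBS. The 2 elicited groups overlapped through the lowest Thio+IL-4c array and the highest Thio array, and both lay above the resident groups. Ccl8 rose 14.5-fold in Thio against PBS (3.86, SE 0.24, adjusted p = 2.0e-07) and 1.80-fold in Thio+IL-4c against Thio (0.85, SE 0.22, adjusted p = 0.0098). The last call was lost when only those 2 groups were fitted (adjusted p = 0.063). IL-4c minus PBS was 0.46 (SE 0.22, adjusted p = 0.15), although the IL-4c and PBS arrays did not overlap.

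Ccl3, Ccl4 and Ccl5 moved the other way with IL-4c. Ccl3, or MIP-1 alpha, had levels of -0.21, 0.72, 0.21 and 0.47 in Thio+IL-4c and 2.99, 3.14 and 3.12 in Thio. It had -6.35, -7.27, -6.33 and -6.13 in IL-4c, where the probe was well above background only on arrays 3 and 4, and -0.65, 0.30 and 1.52 in PBS. Thio was highest, IL-4c lowest, and Thio+IL-4c and PBS overlapped. In IL-4c against PBS Ccl3 fell by 6.91 on the log2 scale (SE 0.44, adjusted p = 3.2e-07) and by 4.51 with the processed values the authors deposited. The size of this fall is uncertain, since the IL-4c level lay near background. Ccl3 fell 6.90-fold in Thio+IL-4c against Thio (-2.79, SE 0.44, adjusted p = 0.00030). It rose 6.48-fold in Thio against PBS (2.70, SE 0.47, adjusted p = 0.00073) and by 6.81 on the log2 scale in Thio+IL-4c against IL-4c (4.34 with the authors' processed values). With the IL-4c arrays held at no less than their lowest signal well above background, Ccl3 was 107-fold higher in Thio+IL-4c than in IL-4c. With that floor it was 736-fold higher in Thio than in IL-4c, and 114-fold lower in IL-4c than in PBS. These folds are not lower limits, since the authors' processed values gave smaller differences. On the log2 scale those were 4.34 between Thio+IL-4c and IL-4c and 4.51 between PBS and IL-4c.

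Ccl4, or MIP-1 beta, is the gene next to Ccl3 on chromosome 11. Its levels were 0.23, 1.17, 0.54 and 0.92 in Thio+IL-4c, 2.05, 1.73 and 1.77 in Thio, -5.31, -5.73, -5.15 and -5.36 in IL-4c, and -3.11, -2.70 and -1.71 in PBS. No 2 groups overlapped, and unlike Ccl3 the Thio+IL-4c arrays lay above the PBS arrays. Ccl4 fell 7.37-fold in IL-4c against PBS (-2.88, SE 0.31, adjusted p = 1.9e-05), a difference that was -1.75 with the authors' processed values and -1.76 with normexp background correction and quantile scaling. It fell 2.20-fold in Thio+IL-4c against Thio (-1.14, SE 0.31, adjusted p = 0.012). Ccl4 rose 20.5-fold in Thio against PBS (4.36, SE 0.33, adjusted p = 1.0e-06) and 68.7-fold in Thio+IL-4c against IL-4c.

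Ccl5, or RANTES, which attracts T cells as well as monocytes, spanned a narrower range. Its levels were -1.17, -0.39, -1.08 and -0.83 in Thio+IL-4c, -0.15, -0.15 and -0.49 in Thio, -1.95, -2.03, -1.92 and -1.96 in IL-4c, and -0.50, -0.45 and 0.05 in PBS. The IL-4c arrays were lowest and apart from all others, while the arrays of the other groups overlapped one another. Ccl5 fell 3.18-fold in IL-4c against PBS (-1.67, SE 0.19, adjusted p = 3.4e-05). It rose 2.14-fold in Thio+IL-4c against IL-4c (SE of the log2 difference 0.18, adjusted p = 0.00023), and the log2 difference was 0.65 with the authors' processed values. Thio+IL-4c minus Thio was -0.60 (SE 0.19, adjusted p = 0.027), and this call rested on single arrays. The adjusted p was 0.067 without Thio 1 (-0.55), 0.069 without Thio 2 (-0.55), 0.067 without Thio+IL-4c 1 (-0.50) and 0.071 without Thio+IL-4c 3 (-0.53). With array weights the difference was -0.31 (adjusted p = 0.18), and with the slide as a block -0.55 (adjusted p = 0.067). Thio minus PBS was 0.04, with a 95% confidence interval of -0.41 to 0.49 (adjusted p = 0.90), and its sign changed with settings.

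Ccl6 and Ccl9 had the narrowest ranges of group means. Ccl6, which attracts macrophages and other leukocytes, had levels of 8.01, 7.64, 7.64 and 7.83 in Thio+IL-4c, 7.35, 7.11 and 7.13 in Thio, 6.78, 6.60, 7.03 and 7.11 in IL-4c, and 7.54, 7.76 and 7.77 in PBS. Thio+IL-4c and PBS overlapped at the top, with Thio and then IL-4c under them. Ccl6 fell 1.75-fold in IL-4c against PBS (-0.81, SE 0.15, adjusted p = 0.0010), but by 0.24 with quantile scaling (adjusted p = 0.22) and by 0.46 with the authors' processed values. It rose 1.496-fold in Thio+IL-4c against Thio (0.58, SE 0.15, adjusted p = 0.0078; 0.33 and adjusted p = 0.061 with quantile scaling) and 1.87-fold in Thio+IL-4c against IL-4c (0.90, or 0.57 with the authors' processed values). Thio minus PBS was -0.49 (SE 0.16, adjusted p = 0.026), and its direction turned with quantile scaling (0.37, adjusted p = 0.045). That call was also lost without PBS 2 (-0.46, adjusted p = 0.078), PBS 3 (-0.45, 0.079), Thio 2 (-0.45, 0.083) or Thio 3 (-0.46, 0.081). Of the 11 alternatives other than leaving out single arrays, 3 lost the call without a turn and 2 turned its direction.

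Ccl9, or MIP-1 gamma, had levels of 7.25, 7.03, 7.08 and 6.98 in Thio+IL-4c, 6.25, 5.76 and 6.10 in Thio, 5.33, 5.38, 5.85 and 5.83 in IL-4c, and 6.39, 6.31 and 6.32 in PBS. Thio+IL-4c lay above every other array, and Thio and IL-4c overlapped. Ccl9 rose 2.07-fold in Thio+IL-4c against Thio (1.05, SE 0.16, adjusted p = 0.00024) and 2.81-fold in Thio+IL-4c against IL-4c (1.49, SE 0.15, adjusted p = 5.9e-06). It fell 1.67-fold in IL-4c against PBS (-0.74, SE 0.16, adjusted p = 0.0033; -0.49 with the authors' processed values). Thio minus PBS was -0.30 (SE 0.17, adjusted p = 0.16), and 0.33 with quantile scaling (adjusted p = 0.10).

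In counts over the 9 members, 6 rose and 3 fell in Thio+IL-4c against Thio, with a median log2 difference of 0.85, where 38.9% of all genes were called (16.1% higher, 22.8% lower) and the median was 0.03. In Thio+IL-4c against IL-4c all 9 rose, with a median of 4.25, where 70.1% of all genes were called (27.4% higher, 42.7% lower) and the median was -0.23. In Thio against PBS 5 rose and 1 fell (median 2.70), where 44.3% of all genes were called (19.9% higher, 24.3% lower) and the median was -0.10. In IL-4c against PBS 0 rose and 5 fell (median -0.74), where 31.6% were called (16.8% higher, 14.8% lower) and the median was -0.00. The groups did not overlap for 7 members in Thio+IL-4c against Thio (44.1% of all genes), for 9 in Thio+IL-4c against IL-4c (72.8%), for 8 in Thio against PBS (41.8%) and for 7 in IL-4c against PBS (53.1%). Thio+IL-4c had the highest mean for 6 members and Thio for 3, whereas IL-4c had the lowest mean for 6, PBS for 2 and Thio for 1. Over all genes Thio+IL-4c was highest for 30.5% and Thio for 14.7%, and IL-4c was lowest for 22.6%. In bulk samples fewer cells of a type and less RNA per cell cannot be told apart.

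The difference between the IL-4c effect in elicited cells (Thio+IL-4c minus Thio) and in resident cells (IL-4c minus PBS) was tested as an interaction. It was above 0 and called for 8 of 9 members, where 32.3% of all genes were called (12.4% above 0 and 19.8% below). The size was 4.62 for Ccl7 (SE 0.33, adjusted p = 1.9e-06), which was 4.56 in elicited and -0.06 in resident cells. It was 3.01 for Ccl12 (SE 0.48, adjusted p = 0.00053), with 3.51 in elicited and 0.50 in resident cells, and 2.85 for Ccl2 (SE 0.30, adjusted p = 3.3e-05), with 2.95 and 0.10. For these 3 ligands of Ccr2 the rise with IL-4c passed the test in elicited cells and not in resident cells, and the difference between them passed too, but Ccl12 was also called higher in IL-4c than in PBS when only those groups were fitted (adjusted p = 0.014). Ccl8 gave 0.39 (SE 0.32, 95% confidence interval -0.30 to 1.08, adjusted p = 0.37).

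For Ccl6 and Ccl9 the called changes ran in opposite directions, though both calls of Ccl6 were lost with quantile scaling. Before scaling, the geometric mean signal of Ccl6 was 371581 in IL-4c and 313099 in PBS. For Ccl9 it was 152754 in IL-4c and 122798 in PBS. The resident falls of the 2 genes thus appear only after scaling between arrays. The 75th percentile was 2849 to 3605 on IL-4c arrays and 1200 to 1712 on PBS arrays, so signals before scaling differ in general brightness. All alternatives run were scaled between arrays, and the Ccl9 fall stayed called in each. Ccl9 rose by 1.05 in elicited cells and fell by 0.74 in resident cells (interaction 1.79, SE 0.23, adjusted p = 0.00011). Ccl6 rose by 0.58 and fell by 0.81 (1.39, SE 0.21, adjusted p = 0.00035; 0.56 with quantile scaling and 0.90 with the authors' processed values). Ccl3, Ccl4 and Ccl5 fell in both, and by less in elicited cells: the interaction was 4.12 for Ccl3 (SE 0.62, adjusted p = 0.00035), 1.75 for Ccl4 (SE 0.44, adjusted p = 0.0094) and 1.06 for Ccl5 (SE 0.27, adjusted p = 0.011). These sizes differed between processing alternatives. Ccl3 gave 2.44 with normexp correction and the same scaling, and 1.59 with the authors' processed values. Ccl4 gave 1.04 with normexp correction, 0.64 with normexp and quantile scaling (adjusted p = 0.22) and 0.50 with the authors' processed values, where adjusted p = 0.28, and Ccl5 gave 0.56 with the authors' processed values (adjusted p = 0.091).

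**Figure D2:**
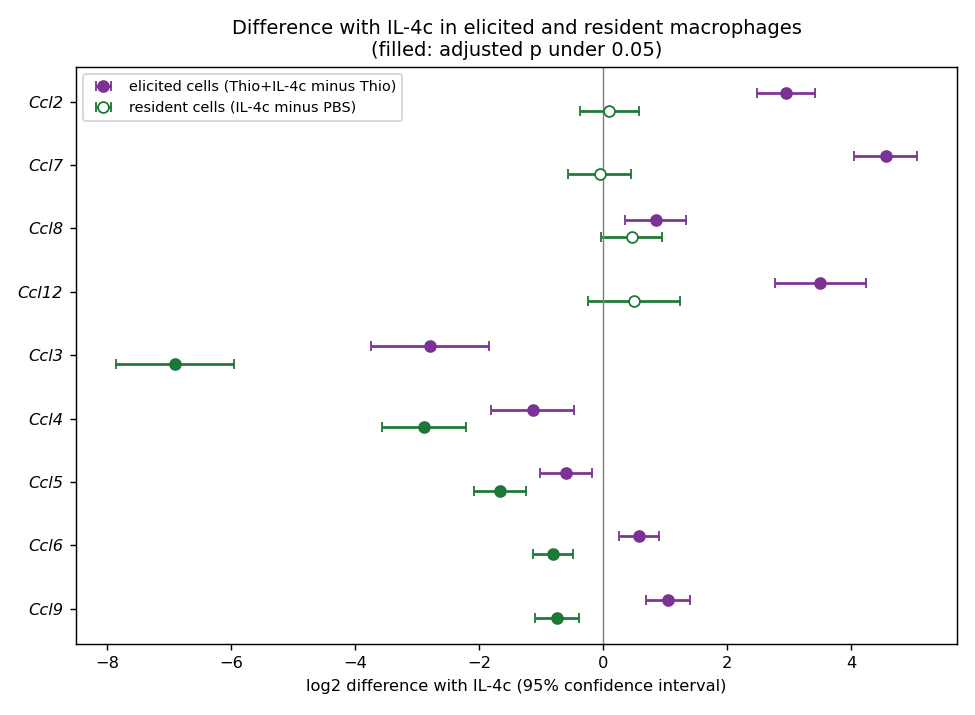
Log2 difference with IL-4c (x axis) for each chemokine gene (y axis), in elicited cells (Thio+IL-4c minus Thio, upper point) and in resident cells (IL-4c minus PBS, lower point); bars are 95% confidence intervals of the fit and filled points had an adjusted p under 0.05. Ccl7, Ccl12 and Ccl2 lie at 4.56, 3.51 and 2.95 in elicited cells with resident intervals that span 0, and Ccl3 lies at -2.79 and -6.91.

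Arrays of a group also differed from each other in a shared way. In Thio+IL-4c, array 1 was lowest for 6 members (Ccl2, Ccl3, Ccl4, Ccl5, Ccl7 and Ccl12) and array 2 highest for 5 (Ccl2, Ccl3, Ccl4, Ccl5 and Ccl7), while array 2 was highest for 17.9% of all genes. In PBS, array 3 was highest for 8 of 9 members, all but Ccl9, and for 34.6% of all genes. This was also the array with the lowest 75th percentile, and the part of brightness in that order was not tested. Ccl3 ranged over 2.17 log2 units between PBS arrays and Ccl4 over 1.39. In IL-4c, array 2 was lowest for 7 members, and it had the highest 75th percentile of all arrays. In Thio+IL-4c the order ran the other way, with the lowest percentile of the group on array 1 and the highest on array 2. The shares of all genes lowest on these arrays were not counted, and the part of brightness was not tested here either.

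**Figure D3:**
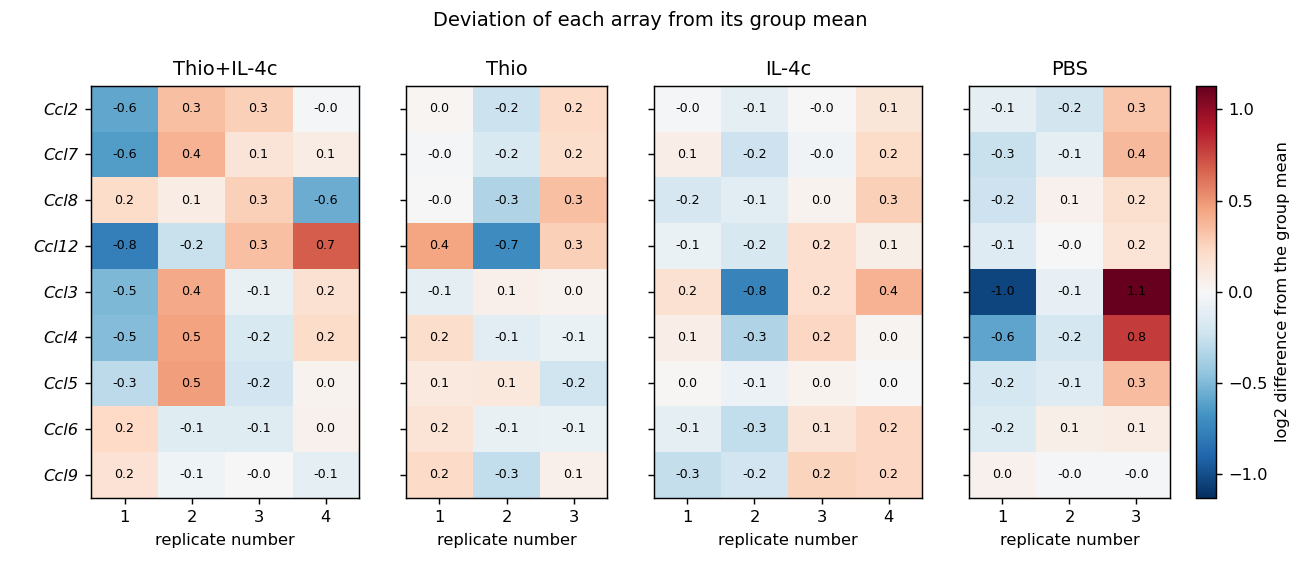
Difference of each array's log2 level from its group mean (colour scale and printed value) for the 9 chemokine genes (rows), with the arrays of the Thio+IL-4c, Thio, IL-4c and PBS groups as columns. Ccl3 in PBS shows the widest spread (-1.04 and 1.13 on arrays 1 and 3), and Thio+IL-4c array 1 lies under its group mean for 6 of 9 genes.

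The slide allows a partial check, since Thio 1 shared its slide with the PBS arrays and Thio 2 and 3 shared theirs with Thio+IL-4c. Thio 1 minus PBS gave 3.63 for Ccl2, 3.99 for Ccl7, 3.85 for Ccl8, 4.55 for Ccl4 and 2.60 for Ccl3. The mean of Thio 2 and 3, on the other slide, gave 3.61 for Ccl2, 4.02 for Ccl7, 3.86 for Ccl8, 4.26 for Ccl4 and 2.74 for Ccl3. Thio+IL-4c minus Thio 2 and 3 gave 4.55 for Ccl7, 3.73 for Ccl12, 2.96 for Ccl2, -2.84 for Ccl3 and -1.04 for Ccl4. For the remaining members, Thio 1 minus PBS was -0.31 for Ccl12, -0.09 for Ccl9, -0.34 for Ccl6 and 0.15 for Ccl5. Thio 2 and 3 minus PBS was -0.98 for Ccl12, -0.41 for Ccl9, -0.57 for Ccl6 and -0.02 for Ccl5. Thio+IL-4c and IL-4c lay wholly on different slides, and with the slide as a block their difference rested on Thio 1, yet all 9 members were still called.

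The receptors of these chemokines were read on the same arrays. Ccr2, the monocyte receptor of Ccl2, Ccl7 and Ccl12, had levels of 3.85, 4.23, 4.24 and 3.99 in Thio+IL-4c and 1.72, 1.11 and 1.32 in Thio. It had -4.30, -3.27, -3.38 and -3.21 in IL-4c and -0.20, 0.37 and 0.15 in PBS. The 4 groups did not overlap. Ccr2 rose by 2.69 in Thio+IL-4c against Thio (SE 0.26), rose by 1.27 in Thio against PBS (SE 0.28, adjusted p = 0.0038) and fell by 3.65 in IL-4c against PBS (SE 0.26, adjusted p = 8.5e-07). Its interaction was 6.34 (SE 0.37, adjusted p = 6.0e-07).

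Ccr1, the receptor of Ccl6, Ccl9, Ccl3 and Ccl5, averaged -0.01 ± 0.25 in Thio+IL-4c, -1.61 ± 0.66 in Thio, -0.69 ± 0.19 in IL-4c and -0.14 ± 0.18 in PBS (SD, n = 4, 3, 4 and 3). It rose by 1.61 in Thio+IL-4c against Thio (SE 0.26, adjusted p = 0.00036) and fell by 1.47 in Thio against PBS (SE 0.28, adjusted p = 0.0013). Ccrl2, an atypical receptor that does not signal movement, averaged -1.34 ± 0.24 in Thio+IL-4c, 1.48 ± 0.22 in Thio, -0.74 ± 0.06 in IL-4c and -0.26 ± 0.31 in PBS. It fell by 2.83 in Thio+IL-4c against Thio (SE 0.17) and rose by 1.75 in Thio against PBS (SE 0.18).

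Of 7 receptor genes, 2 rose and 1 fell in Thio+IL-4c against Thio, 3 rose and 3 fell in Thio+IL-4c against IL-4c, 2 rose and 2 fell in Thio against PBS, and 0 rose and 1 fell in IL-4c against PBS. Over all genes, 38.9%, 70.1%, 44.3% and 31.6% were called in these comparisons, in the order given. The rise of Ccr1 in Thio+IL-4c against IL-4c, 0.69, became -0.38 with the slide as a block (adjusted p = 0.43). Ccr8, the receptor of mouse Ccl8, averaged -1.59 ± 0.28 in Thio+IL-4c and -0.52 ± 0.09 in IL-4c, a called fall of 1.07, and -1.13 ± 0.49 in Thio and -0.77 ± 0.13 in PBS. It was at -0.59 on Thio 1, on the slide of IL-4c and PBS, and at -1.29 and -1.52 on Thio 2 and 3. The part of the slide in the Ccr8 fall was not tested. Ccr3, the eosinophil receptor, was higher by 0.81 in Thio+IL-4c than in IL-4c. Ackr1 and Ackr2 are scavenging or carrier receptors. Ackr1 was at 1.03 on Thio 1 and at -0.87 and -0.64 on Thio 2 and 3, and Ackr2 at -3.92 on Thio 1 and at -1.15 and -0.87 on Thio 2 and 3, so Thio 1, on the other slide, stood apart for both.

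**Figure D4:**
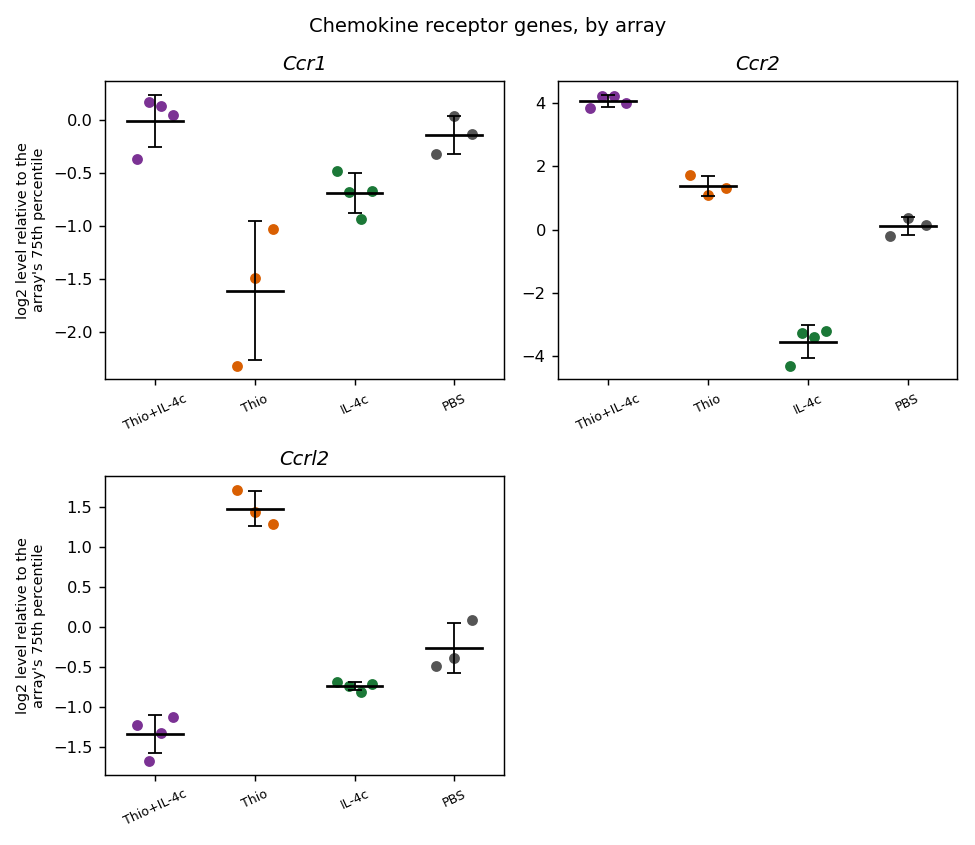
Log2 level of the receptor genes Ccr1, Ccr2 and Ccrl2 with the array's 75th percentile at 0 (y axis, a separate scale in each panel), with 1 point per array in each group (x axis); the line is the mean and the bar 1 SD. Ccr2 averaged 4.08 in Thio+IL-4c and -3.54 in IL-4c, and Ccrl2 -1.34 in Thio+IL-4c and 1.48 in Thio.

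Among 8 other CC chemokine genes measured of 11 listed, 3 rose and 1 fell in Thio+IL-4c against Thio: Ccl24, an attractant of eosinophils, rose by 8.47 and Ccl17, an attractant of type 2 T cells, by 5.04, and Ccl27a fell by 2.13. In Thio+IL-4c against IL-4c 6 rose and 1 fell, in Thio against PBS 2 rose and 1 fell (Ccl24 by 5.83), and in IL-4c against PBS 1 rose (Ccl17, by 1.17) and 4 fell (Ccl24 by 2.00, Ccl27a by 1.59). Among those falls was Ccl22 (by 1.01), which was not well above background on any IL-4c or PBS array. Over all genes, 38.9%, 70.1%, 44.3% and 31.6% were called in these comparisons, in the order given. Ccl1, the gene beyond Ccl8 on the chromosome, was at -5.67 on Thio 1 and at 0.37 and 0.30 on Thio 2 and 3. Of the protein-coding genes of the stretch that runs Ccl2, Ccl7, Ccl11, Ccl12, Ccl8, Ccl1, 5 of 6 were measured. Neighbours did not always move together: Ccl12 lies between Ccl7 and Ccl8, which were called higher in Thio than in PBS where it was not.

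The NF-kB pathway, which drives many of these genes after inflammatory stimuli, was followed with 16 genes. In Thio+IL-4c against Thio 5 rose (Nfkbia, an inhibitor, by 1.78; Nfkb1, a subunit, by 1.32) and 4 fell (Tnfaip3, a feedback inhibitor, by 0.99). In Thio+IL-4c against IL-4c 9 rose (Rel, a subunit, by 2.19) and 2 fell, in Thio against PBS 5 rose (Tnfaip3 by 1.58) and 7 fell (Nfkbiz by 2.26), and in IL-4c against PBS 3 rose and 5 fell (Nfkbiz by 2.31, Nfkbie by 1.41). Of 14 inflammatory cytokine and mediator genes, 3 rose (Il6 by 4.15) and 2 fell (Il1a by 2.19) in Thio+IL-4c against Thio, and 7 rose (Il1b by 3.38) and 4 fell (Il6 by 3.09) in Thio+IL-4c against IL-4c. In Thio against PBS 2 rose (Il1a by 2.01, Tnf by 1.501) and 3 fell (Il6 by 3.42), and in IL-4c against PBS 1 rose (Il6 by 3.82) and 2 fell (Csf1 by 1.05, Tnf by 1.01). Tnf, like Ccl3, Ccl4 and Ccl5, fell with IL-4c in resident cells. These lists were chosen with results of these data known and give no independent support. Of all genes, 38.9% were called in Thio+IL-4c against Thio and 70.1% in Thio+IL-4c against IL-4c. The shares were 44.3% in Thio against PBS and 31.6% in IL-4c against PBS. Some of the counts of the 2 lists lay near or under these shares.

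Genes of other cells that the sort could hold were summed over each list, as signal relative to the 75th percentile. Neutrophil genes (8 measured of 9) summed to 14.7 to 22.2 in Thio+IL-4c, 9.19 to 17.9 in Thio, 3.45 to 6.97 in IL-4c and 4.00 to 4.89 in PBS. Of the neutrophil genes 2 of 8 rose in Thio+IL-4c against Thio, where 16.1% of all genes were called higher. T and NK cell genes, from cells that also make Ccl3, Ccl4 and Ccl5, summed to 21.2 to 27.1 in Thio+IL-4c, 15.1 to 18.8 in Thio, 14.7 to 24.2 in IL-4c and 15.7 to 16.3 in PBS. Such a sum leans on its brightest probes, here Cd4 at a mean of 8.72 in Thio+IL-4c. Of the 10 T and NK cell genes 1 rose and 2 fell in Thio+IL-4c against Thio. Over all genes 16.1% were called higher and 22.8% lower in that comparison. Ccl3, Ccl4 and Ccl5 had their highest group means in Thio, and the part of T and NK cells in them was not tested. Mesothelial and stromal genes summed to 2.23 to 2.59 in Thio+IL-4c, 3.004 to 4.38 in Thio, 0.74 to 0.87 in IL-4c and 1.31 to 1.501 in PBS. B cell genes summed to 1.79 to 1.96 in Thio+IL-4c, 1.63 to 2.28 in Thio, 0.858 to 1.33 in IL-4c and 5.44 to 13.98 in PBS. Mast cell genes summed to 1.40 to 1.87 in Thio+IL-4c, 1.87 to 4.79 in Thio, 3.41 to 3.83 in IL-4c and 6.56 to 8.14 in PBS. The B and mast cell sums were thus highest in PBS. Eosinophil genes summed to 2.03 to 3.41 in Thio+IL-4c, 1.23 to 2.52 in Thio, 2.01 to 2.26 in IL-4c and 2.14 to 2.43 in PBS, and dendritic cell genes to 3.14 to 5.03 in Thio+IL-4c, 0.570 to 2.52 in Thio, 5.64 to 6.81 in IL-4c and 2.20 to 3.56 in PBS. Immediate early and heat shock genes, which rise when cells are handled, summed to 166 to 180 in Thio+IL-4c, 121 to 163 in Thio, 118 to 134 in IL-4c and 188 to 231 in PBS. The 121 is the sum of Thio 1, which lacked a value for Hspa8, so it is too low to be compared. Where measured, Hspa8 made up much of this sum, at a mean of 79.3 in Thio (2 arrays) and 107 in Thio+IL-4c. Macrophage genes summed to 112 to 121 in Thio+IL-4c, 132 to 179 in Thio, 248 to 258 in IL-4c and 371 to 433 in PBS. Among the genes summed here, those not well above background on any array of a group were Wt1 in Thio+IL-4c, IL-4c and PBS, Col1a1 and the eosinophil gene Epx in PBS and the T cell gene Cd3g in IL-4c. Within Thio, the mast, eosinophil and macrophage sums were highest on Thio 1, which lay on the slide of the IL-4c and PBS arrays. The dendritic cell gene Flt3 was at -2.57 on Thio 1 and at 0.54 and 0.52 on Thio 2 and 3. The part of the slide in these sums was not tested. The part of other cells and of handling in the chemokine values was not tested either.

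Over the 14 arrays, which share their treatment groups and slides, the 9 genes fell into patterns by correlation, given here as a description. Ccl2 and Ccl7 correlated at r of 0.997, Ccl2 and Ccl8 at 0.96, Ccl3 and Ccl5 at 0.94, Ccl3 and Ccl4 at 0.91, and Ccl6 and Ccl9 at 0.90, while Ccl3 and Ccl12 gave -0.07. The other genes most like each member were Car5b (0.99) and Dcstamp (0.98) for Ccl2, Car5b (0.99) and Uck2 (0.99) for Ccl7, Rnase2b (0.98) and Spef1l (0.97) for Ccl12, and Rab3il1 (0.99) and Gsn (0.99) for Ccl8. For Ccl3 they were the scavenger receptor gene Cd36 (0.99) and Arid3a (0.98), for Ccl4 Evl (0.99) and Cpeb2 (0.98), and for Ccl5 the Fc receptor gene Fcgr1 (0.97) and Tmem243 (0.96). For Ccl6 they were Olfr544 (0.94) and Uck1 (0.93), and for Ccl9 the MHC class II gene H2-Eb1 (0.96) and Cd226 (0.95). Cd36 averaged 3.70 in Thio+IL-4c, 5.11 in Thio, 0.53 in IL-4c and 3.66 in PBS, so that Thio+IL-4c lay under Thio and IL-4c under PBS, as for Ccl3.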

How the data were processed

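The 9 genes, the lists of other genes and the tests were chosen with earlier results of these data known. The authors deposited 1 table of spot intensity per array, which per the file headers came from Agilent Feature Extraction 11.0.1.1 (the submitters' processing notes give 11.5 and limma) and holds a signal background-subtracted and detrended within the array, with no scaling between arrays. They also deposited a table of processed values with a median of 9.2341 on every array, taken here as log2. How the authors corrected its background and which log base they used are not given in the sources used here. Flags of the scanner software, per the file headers, marked probes well above background.

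Control spots (3671 of 62976) and spots flagged as outliers were left out, spots of a probe were averaged, and log2 of the processed intensity minus the 75th percentile of the array was taken. Probes were named through RefSeq accessions (27235 of 55681 had 1 symbol). A gene was its brightest probe well above background on at least 3 arrays. Differences were tested, two-sided, with limma 3.58.1 in R 4.3.3 in a single fit of all 14 arrays with 1 mean per group, with p-values adjusted by Benjamini and Hochberg's method over all 20342 genes and a threshold of 0.05. The fit was tested on simulated data. Named genes were the 9 members, their receptors (1 of which is not reported here), the 2 genes best correlated with each member, and up to 2 called rises and 2 called falls per other list and comparison, of which only some are given. Alternatives were other scalings, normexp background correction with offset 50 (on the median signal, the files having no mean signal), the authors' values, other filters on dim probes, the mean of a gene's probes, slide and replicate blocks, array weights, fits of the compared groups alone, and leaving out each array. No pairing of arrays by the replicate numbers in the titles was seen, though the check cannot exclude one.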

Additional observations from a re-analysis of the deposited data

Results flagged for a closer look

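The IL-4c effect differed between elicited and resident cells for 8 of the 9 chemokine genes, by the test of the difference itself (limma adjusted p under 0.05). By the same test 32.3% of all genes were called. The log2 difference of the effects was 4.62 for Ccl7, 4.12 for Ccl3, 3.01 for Ccl12, 2.85 for Ccl2, 1.79 for Ccl9, 1.75 for Ccl4, 1.39 for Ccl6 and 1.06 for Ccl5. Among the receptor genes it was 6.34 for Ccr2, 2.16 for Ccr1 and -2.35 for Ccrl2. The Ccl7, Ccl12 and Ccl2 values come with a called rise in elicited cells and an uncalled difference in resident cells. The Ccl3, Ccl4 and Ccl5 values come with called falls in both. With the authors' processed values the difference of effects was 1.59 for Ccl3. It was 0.50 for Ccl4 (limma adjusted p = 0.28) and 0.56 for Ccl5 (adjusted p = 0.091), where the calls were lost.

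The Ccr2 level of IL-4c array 1, at -4.30, lay far from the other IL-4c arrays, at -3.38 to -3.21, with a gap of 0.84 of the group's range, just past the critical value for 4 arrays. This was the single such array among 32 groups of 4 arrays examined, over the 9 chemokine and 7 receptor genes, and chance alone flags about 5% of groups.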

How the results depend on the processing

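The number of called members stayed within 1.5 times its value in each comparison under all alternatives run. Of 859 values of single members, 821 kept direction and side of the threshold, 23 lost the call, 3 gained it and 12 turned. Those that turned were Ccl7 in IL-4c against PBS (0.069 with quantile scaling, -0.18 to 0.13 leaving out each array, above 0 without IL-4c 2 or PBS 3), Ccl6 and Ccl9 in Thio against PBS (0.37 and 0.33 with quantile scaling, 0.40 and 0.30 with normexp and quantile scaling) and Ccl5 in Thio against PBS (-0.090 with array weights, -0.064 to 0.21 leaving out each array, below 0 without PBS 1, PBS 2, Thio 1 or Thio 2). Ccr1 turned in Thio+IL-4c against IL-4c (-0.38 with the slide block). Ccl8 and Ccl12 were called in IL-4c against PBS (adjusted p = 0.045 and 0.014) when only those groups were fitted. Ccl3 had no value when every array had to be well above background. The cause was not tested. Counts over all genes moved in Thio against PBS (9007, but 14944 with array weights, 3726 with only those groups and 13895 without Thio 1), in Thio+IL-4c against Thio (7911, but 5205 with only those groups) and in Thio+IL-4c against IL-4c (14267, but 5417 with the slide block). The median of all genes was -0.43 in Thio+IL-4c against IL-4c in the authors' table and -0.23 otherwise at the chosen scaling. Deviations of same-numbered arrays correlated at r of -0.45 to 0.37 and of others at -0.42 to 0.43. No pairing by number was seen, but deviations from the means of groups of 3 or 4 arrays cannot exclude one. With the replicate block, Ccl5 in Thio+IL-4c against Thio was -0.61 (adjusted p = 0.065), and no other call of a member changed.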
